A study of Mus musculus with 6 samples.

Results

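The genes described here encode the netrin ligands Ntn1 and Ntn4, the netrin receptors Unc5b and Unc5c, the Unc5 ligand Flrt2, the Slit ligands Slit2 and Slit3 and the receptors Robo1, Robo2 and Robo4. They were chosen by name, with earlier results of these data known, so the counts below describe these genes and do not test them. Every probe set that the platform table assigns to 1 of these 10 genes and to no other was taken. This gave 20 of the 45037 probe sets tested and 10 of the 18193 genes with a probe set of their own. RNA was measured on 6 arrays from CD45neg endothelial cells of 6-week-old C57BL/6 mice, sorted live from pooled skin-draining and mesenteric LN. The groups were 3 arrays labelled double positive and 3 labelled CD31+, each with biological replicates numbered 1 to 3. No treatment is named for either group, and each sample pooled LN from many sites, so differences between sites were averaged. The sample labels set the word BEC beside double positive and the word LEC beside CD31+, whereas the study's sorting gates define LEC as gp38+ CD31+ and BEC as gp38neg CD31+. Groups were therefore named by the gate word, and reading the labels by the cell type word would turn the sign of every difference below.

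Netrins and Slits are secreted proteins that steer growing axons and vessel sprouts. Netrins act through DCC, neogenin and the Unc5 receptors, Slits act through Robo receptors, and Flrt proteins are transmembrane ligands that bind Unc5 receptors and latrophilins. In vessels, Unc5b and Robo4 are the family members best known from blood endothelium, where Robo4 is linked to vessel stability.

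Values are GCRMA log2 abundances, and a difference is the double-positive group mean less the CD31+ group mean on that scale. Of the 7 lymphatic endothelial markers checked, 6 were higher without overlap in the double-positive arrays, and of the 9 blood endothelial markers 6 were lower without overlap. Over all probe sets, 10.8% were higher and 2.32% lower without overlap. Prox1 was the lymphatic exception, differing by 0.07 at its brightest probe set, although its second differed by 3.72 without overlap. Plvap, Madcam1 and Glycam1 were the blood endothelial markers that overlapped. Pdpn, which encodes gp38, read 7.28 to 8.32 in the double-positive arrays and 3.29 to 3.75 in the CD31+ arrays. Pecam1, which encodes the CD31 of both gates, was barely detected, reading 2.39 to 2.43 on double-positive arrays and 2.43 to 2.59 on CD31+ arrays. The arrays also differed in brightness. Between 13.8% and 14.7% of probe sets reached a log2 value of 5 on the double-positive arrays and between 10.7% and 12.6% on the CD31+ arrays, and centring each array on its bright probe sets lowers every difference by 0.68. The floor of the values is 2.39, and 50.2% of the probe sets with a mean more than 0.1 above it carry an identical value on at least 2 arrays, so that an SD of 0 can come from the normalization. The measurements are of sorted bulk cells, in which a smaller share of expressing cells and less RNA per cell cannot be told apart.

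Flrt2, Ntn4, Unc5c, Robo1, Ntn1 and Slit2 read higher on each double-positive array than on any CD31+ array, and Robo4 read lower on each of them. Unc5b, Slit3 and Robo2 overlapped between the groups. Of the 20 probe sets, the groups did not overlap for 8 that were higher and 1 that was lower, against 10.8% and 2.32% of all probe sets. Limma over all probe sets at 5% FDR called 3 of the 20 higher and 0 lower, against 0.502% and 0.113% of all probe sets, with 7 and 1 of the 20, against 7.64% and 1.32% of all, at an unadjusted p under 0.05. The calls were those of Flrt2, at both of its brighter probe sets, and of Unc5c. Fitting replicate numbers as a block left 0 of the 20 called, and 4 of all probe sets, although 7 of the 20 were still higher and 1 lower before adjustment (limma p under 0.05), against 7.87% and 1.4% of all. Over the 5764 probe sets averaging 5 or more across the 6 arrays, called bright below, where the spread is estimated from bright probe sets alone, 5 probe sets of these genes were higher and 1 was lower, against 30.2% and 3.19% of that set. Under the other filter tried, of 5 on at least 3 arrays, the counts were 5 and 1, against 32.9% and 3.81%. Under both filters the 6 probe sets entered through their brighter group, since each reached 5 on those 3 arrays alone. These counts, and the adjusted p-values over the bright probe sets given below for these genes, are therefore descriptions and not support for a difference.

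**Figure D1:**
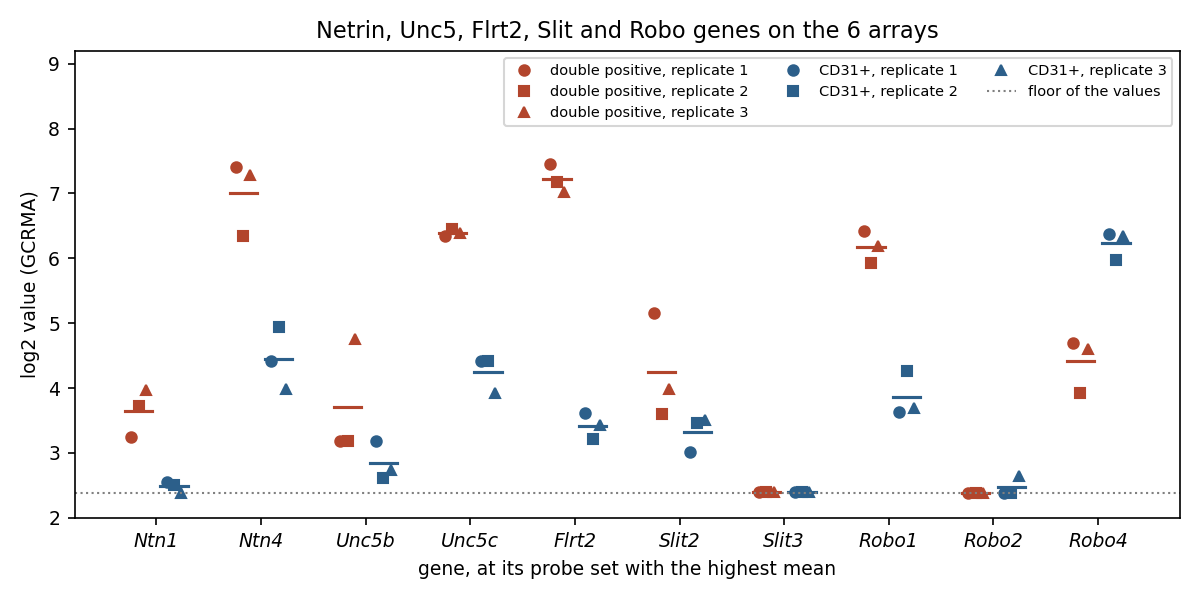
Log2 values (GCRMA, y axis) of the 10 genes (x axis) on the 6 arrays, each gene at its brightest probe set. Marks are arrays, with the shape giving the replicate number, bars are group means of 3 arrays, and the dotted line is the floor at 2.39. Flrt2, Ntn4, Unc5c and Robo1 lie above 5.9 on all double-positive arrays and below 5 on all CD31+ arrays, and Robo4 lies the other way round.

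Flrt2 had the largest difference of the 10 genes. Its brightest probe set read 7.45, 7.18 and 7.02 on the double-positive arrays, against 3.61, 3.21 and 3.43 on the CD31+ arrays. All 3 double-positive values lay more than 3 log2 units above the CD31+ values, a difference of 3.80 (standard error 0.163, 95% interval 3.36 to 4.24) or 13.9-fold on the linear scale. Limma gave it an adjusted p of 0.0163 over all probe sets, 5.88e-05 over the bright probe sets and 0.124 over all probe sets with the block. A further Flrt2 probe set read 6.97, 6.65 and 7.20 on the double-positive arrays, against 3.11 on all 3 CD31+ arrays, and differed by 3.83 (adjusted p = 0.0129 from limma, and 0.155 with the block). The identical CD31+ values of that probe set give an SD of 0, which can come from the normalization and narrows its standard error of 0.153. The third probe set, at 4.85, 4.52 and 5.47 against 3.67, 3.67 and 3.76, differed by 1.25 and did not pass (adjusted p = 0.221 from limma). The 3 Flrt2 probe sets thus pointed the same way without overlap of the groups, and the dimmest of them had the smallest difference. The paired differences at the brightest probe set, between arrays of the same number, were 3.84, 3.97 and 3.59.

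Of the netrin receptors, Unc5c passed as higher in double-positive cells over all probe sets, though not with the block. Unc5b was dim in both groups. Unc5c, which mediates repulsion by netrin in neurons, read 6.35, 6.45 and 6.39 on the double-positive arrays, against 4.41, 4.41 and 3.92 on the CD31+ arrays. The double-positive values lay close together, with an SD of 0.0544 (n = 3), and about 2 log2 units above the others. Of the CD31+ values 2 were identical, which can come from the normalization. The difference was 2.15 (standard error 0.16, 95% interval 1.72 to 2.58), or 4.44-fold, with an adjusted p of 0.0326 from limma over all probe sets, 0.000971 over the bright probe sets and 0.198 over all probe sets with the block. The other Unc5c probe set lay at 2.48 on all double-positive arrays and at 2.48 to 2.55 on the CD31+ arrays, near the floor. Unc5b, the receptor of endothelial tip cells, read 3.18, 3.18 and 4.76 on the double-positive arrays and 3.18, 2.62 and 2.74 on the CD31+ arrays. Its groups overlapped, since the value of 3.18 occurred in both, and double-positive replicate 3 alone stood above. The difference of 0.86 (95% interval -0.57 to 2.29, adjusted p = 0.659 from limma) fell to 0.33 without that array, and its other probe set stayed between 2.42 and 2.46.

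Both netrin ligand genes read higher in the double-positive arrays, Ntn4 among bright probe sets and Ntn1 close to the floor. Ntn4, a netrin of basement membranes that binds laminin, read 7.41, 6.34 and 7.28 on the double-positive arrays, against 4.42, 4.94 and 3.98 on the CD31+ arrays. The arrays numbered 2 came closest to each other, with a paired difference of 1.40 beside 2.99 and 3.30 for the arrays numbered 1 and 3. The mean difference was 2.56 (standard error 0.419, 95% interval 1.44 to 3.69), or 5.91-fold. Limma did not call it over all probe sets (adjusted p = 0.131), and gave 0.00218 over the bright ones, which it joined through its double-positive arrays. Ntn1, the founding ligand of the family, read 3.24, 3.73 and 3.97 on the double-positive arrays, against 2.56, 2.50 and 2.39 on the CD31+ arrays, the last of which is the floor. Its difference, 1.16 (standard error 0.209, limma adjusted p = 0.156), did not pass, and 1 of the CD31+ values sits at the lower limit of the scale. The remaining probe sets of Ntn1 and Ntn4 read 2.39, the floor, on all 6 arrays and can show no difference.

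**Figure D2:**
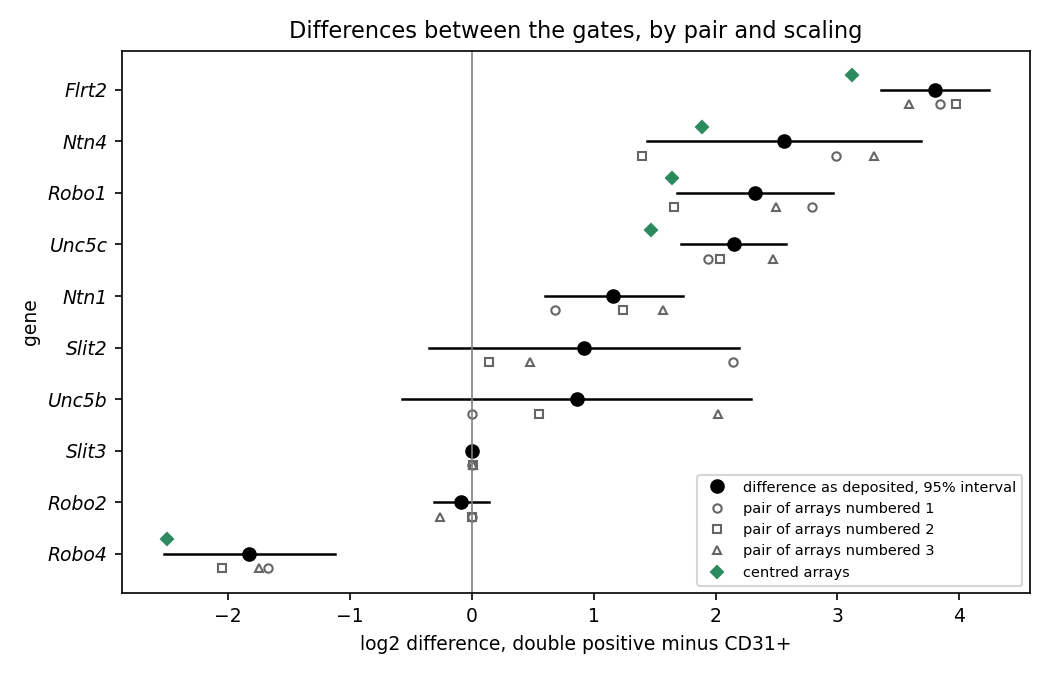
Log2 difference between the gates (x axis, double positive minus CD31+) of the 10 genes (y axis) at their brightest probe sets. Filled circles with bars are limma differences with 95% intervals over 3 arrays per group, open marks are the differences of arrays with the same replicate number, and diamonds are differences after centring of the arrays, drawn for genes that reached 5 on at least 3 arrays. Flrt2, Ntn4, Robo1 and Unc5c stay above 0 and Robo4 below 0 in every pair and under centring, while the pairs of Slit2 and Unc5b are spread out.

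Robo1 and Robo4 differed in the sign of the difference, and neither passed over all probe sets. Robo1, a Slit receptor of neurons and many other cells, read 6.42, 5.93 and 6.19 on the double-positive arrays, against 3.63, 4.26 and 3.69 on the CD31+ arrays. The groups lay well apart, with the nearest arrays at 5.93 and 4.26, and the difference was 2.32 (standard error 0.237, 95% interval 1.68 to 2.96), or 4.98-fold. It missed the threshold over all probe sets (adjusted p = 0.0548 from limma, and 0.00102 over the bright ones). Its other probe sets, at 2.44 to 2.54 and at the floor, differed by 0.03 and 0.00. Robo4, the Robo receptor of endothelium, read 4.70, 3.93 and 4.60 on the double-positive arrays, against 6.38, 5.98 and 6.35 on the CD31+ arrays. All 3 double-positive values were the lower ones, with paired differences of -1.67, -2.05 and -1.75. The mean difference was -1.83 (standard error 0.262, 95% interval -2.53 to -1.12), a level 3.55-fold higher in the CD31+ arrays, with an adjusted p of 0.101 from limma over all probe sets and 0.0041 over the bright probe sets. Relative to Robo4 on the same array, Robo1 was shifted by 4.14, Unc5c by 3.98, Ntn4 by 4.39 and Flrt2 by 5.63 log2 units in the double-positive arrays. A constant added to all values of an array leaves these shifts unchanged, but other normalizations can alter them. Under quantile normalization Robo1, Unc5c, Ntn4, Flrt2 and Robo4 differed by 1.83, 1.64, 2.01, 3.34 and -2.38. The part of normalization in the signs was not tested. Robo2, the neighbouring gene of Robo1 on the chromosome, lay at the floor of 2.39 on 5 arrays and at 2.65 on CD31+ replicate 3.

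The Slit ligands were dim in both groups. Slit2, the main ligand of Robo1, read 5.15, 3.60 and 3.99 on the double-positive arrays, against 3.01, 3.46 and 3.51 on the CD31+ arrays. The groups did not overlap, but double-positive replicate 2 exceeded CD31+ replicate 3 by little and double-positive replicate 1 stood apart. It differed by 0.92 (standard error 0.471, 95% interval -0.35 to 2.19, adjusted p = 0.659 from limma), and by 0.47 without that array, and the interval includes both 0 and larger differences. The other Slit2 probe sets lay at the floor, apart from a value of 2.42 on double-positive replicate 3. Slit3, another Robo ligand, read 2.40 on all 6 arrays at its only probe set, so that no statement on its expression can be drawn from these arrays.

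Slit2 and Slit3 each enclose a gene for the microRNA miR-218 in the RefSeq annotation, and both copies give the same mature sequence, which is shown because Robo1 and Robo2 are known targets of this microRNA in mouse. The copies lie at chr5:48223966-48223986 in Slit2 and chr11:35616840-35616860 in Slit3 (GRCm38.p6, plus strand), and capitals mark the seed, bases 2 to 8. The microRNA itself was not analysed here.
mmu-miR-218-5p: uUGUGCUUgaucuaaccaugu

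Upstream sequences were compared for genes with opposite signs of the difference. RefSeq (GRCm38.p6) gave a start site for 9 of the 10 genes, with 11 start sites in all, and the 250 bases before each were compared with those of 32851 start sites of the same table. The 3 genes shown are Robo4, which read lower in the double-positive arrays, and Flrt2 and Unc5c, which were called higher. Capitals mark CG dinucleotides, and sequences run 5′ to 3′ on the plus strand of chr9:37401722-37401971 (Robo4), chr12:95691976-95692225 (Flrt2) and chr3:141465314-141465563 (Unc5c).
Robo4: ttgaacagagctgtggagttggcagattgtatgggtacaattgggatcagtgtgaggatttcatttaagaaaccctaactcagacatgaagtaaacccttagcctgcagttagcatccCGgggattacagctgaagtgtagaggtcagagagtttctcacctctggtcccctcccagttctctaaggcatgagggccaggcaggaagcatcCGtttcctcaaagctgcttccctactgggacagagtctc
Flrt2: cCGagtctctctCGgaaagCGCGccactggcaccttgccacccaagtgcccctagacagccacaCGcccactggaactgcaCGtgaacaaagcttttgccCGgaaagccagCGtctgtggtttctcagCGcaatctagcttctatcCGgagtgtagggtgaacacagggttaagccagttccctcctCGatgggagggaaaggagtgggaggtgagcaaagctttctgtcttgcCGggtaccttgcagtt
Unc5c: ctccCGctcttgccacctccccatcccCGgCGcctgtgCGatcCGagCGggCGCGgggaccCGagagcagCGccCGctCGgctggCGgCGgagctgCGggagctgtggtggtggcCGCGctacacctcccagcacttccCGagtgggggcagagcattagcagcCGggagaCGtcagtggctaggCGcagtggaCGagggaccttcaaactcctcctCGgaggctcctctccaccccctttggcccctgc

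The Robo4 stretch held 2 CG dinucleotides at a GC content of 49.6%, the Flrt2 stretch 12 at 57.2% and the Unc5c stretch 23 at 71.2%. The median over all start sites was 6 CG dinucleotides and 52.4% GC, and 29% of all start sites had as few as Robo4, so its count is low among these genes but common in the genome. Ntn4 and Robo1, also higher in the double-positive arrays, had 26 and 11, while of the dim genes Slit3, Unc5b and Slit2 had 35, 27 and 25 and the 3 start sites of Robo2 had 14, 8 and 4. With Robo4 as the single gene that read lower, these counts cannot be set against direction. GGAA, the core bound by Ets factors, occurred 3 times before Robo4, 5 times before Flrt2 and 1 time before Unc5c on either strand, and 93.4% of all start sites held it. GGGCGG, the GC box, was found before Ntn4, Slit2, Slit3 and Unc5b and in 32.7% of all start sites, and TATAAA before Slit2 and in 12.4% of them, both strands counted. These matches describe the letters in the window only.

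Further ligands and receptors of the system were mostly dim, and 4 of them, Flrt3, Adgrl2, Neo1 and Dag1, had a bright probe set. All 21 listed genes were measured, on 56 probe sets. Limma called 1 of these higher and 0 lower over all probe sets, against 0.502% and 0.113% of all. At an unadjusted p under 0.05 (limma), 2 were higher and 2 lower, against 7.64% and 1.32% of all. The median difference was 0.00, as over all probe sets. The call was Flrt3, which encodes a paralogue of Flrt2. It read 8.74, 8.86 and 9.23 on the double-positive arrays, against 6.07, 6.48 and 6.50 on the CD31+ arrays. The groups differed by 2.59 (standard error 0.196), with a limma adjusted p of 0.0337, or 0.155 with the block. Its second probe set, at 4.07 to 5.06 against 2.39 to 2.84, differed by 2.00 (adjusted p = 0.111 from limma). Flrt2 and Flrt3 were thus higher together, and Flrt1 lay below 3 in both group means, at 2.64 and 2.77.

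Adgrl2, a latrophilin and thus a receptor of Flrt proteins, read 5.97, 6.21 and 6.10 on the double-positive arrays, against 8.45, 8.16 and 7.30 on the CD31+ arrays. The groups did not overlap, and the difference of -1.88 (standard error 0.339) did not pass over all probe sets (adjusted p = 0.157 from limma) and passed over the bright probe sets (adjusted p = 0.0058 from limma). A dimmer Adgrl2 probe set differed by -2.04 and likewise passed over the bright probe sets alone (limma adjusted p = 0.0121, and 0.312 over all). The other latrophilin genes, Adgrl1 and Adgrl3, differed by 0.52 and -0.31 with no call. Neo1, the netrin receptor neogenin, read 5.84, 4.94 and 4.83 on the double-positive arrays, against 5.22, 6.69 and 5.27 on the CD31+ arrays. Its groups overlapped, with a difference of -0.52 (95% interval -2.01 to 0.97, adjusted p = 0.671 from limma). Dag1, which encodes the Slit-binding protein dystroglycan, differed by 0.83 (95% interval -0.12 to 1.78, adjusted p = 0.656 from limma). Dcc, the attractive netrin receptor, had group means of 2.68 and 2.62, Unc5a 2.49 and 2.53, and Unc5d, Ntn3 and Ntn5 lay at the floor.

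**Figure D3:**
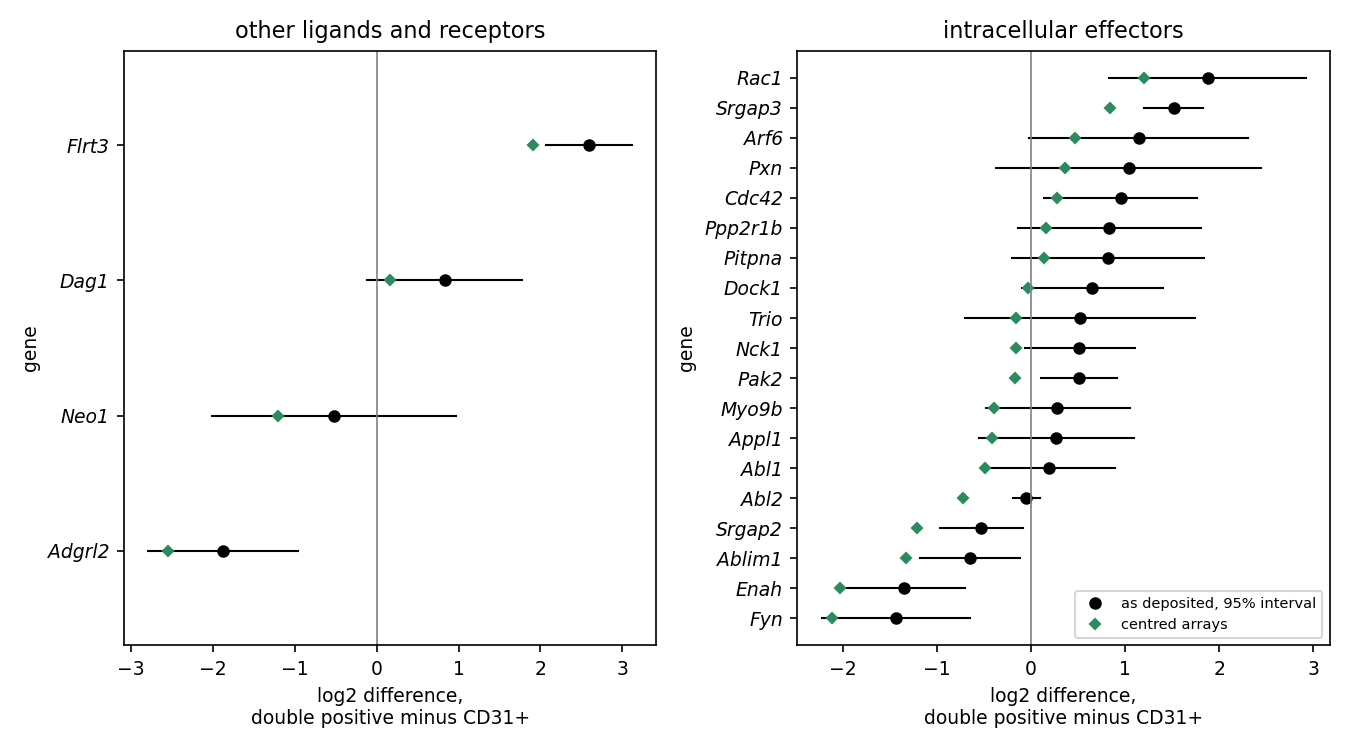
Log2 difference (x axis, double positive minus CD31+) of listed genes (y axis) with a mean of at least 5 across the 6 arrays, each at its brightest probe set. The left panel holds further ligands and receptors and the right panel intracellular effectors, circles with bars are limma differences with 95% intervals over 3 arrays per group, and diamonds are differences after centring. Flrt3, Rac1 and Srgap3 are among the genes above 0, and Adgrl2, Enah and Fyn among those below 0, on either scale.

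Effectors that act inside the cell below these receptors held 1 call. Of 35 listed genes 33 were measured, on 96 probe sets. Limma called 1 of these higher and 0 lower over all probe sets, against 0.502% and 0.113% of all. At an unadjusted p under 0.05, limma had 10 higher and 5 lower, against 7.64% and 1.32% of all. Over the bright probe sets it called 4 higher and 2 lower of 23, against 30.2% and 3.19% of that set. With centred arrays it called 2 higher and 4 lower, against 10.2% and 8.62%, so their balance depends on the scaling. The call was Srgap3, a GTPase activating protein that binds Robo receptors. It read 6.82, 7.06 and 6.97 on the double-positive arrays, against 5.56, 5.51 and 5.24 on the CD31+ arrays. The groups differed by 1.52 (standard error 0.116), with a limma adjusted p of 0.0346, or 0.218 with the block. Its paralogue Srgap2 differed by -0.53 without a call (adjusted p = 0.419 from limma), and Srgap1 was dim.

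Rac1, a GTPase of the leading edge of moving cells, read 10.42, 10.03 and 9.81 on the double-positive arrays, against 8.24, 8.82 and 7.56 on the CD31+ arrays. The difference of 1.88 passed over the bright probe sets (adjusted p = 0.00787 from limma) and not over all (adjusted p = 0.203 from limma). Enah, an actin regulator that binds Robo1, read 5.82, 5.65 and 5.99 on the double-positive arrays, against 6.85, 7.63 and 7.03 on the CD31+ arrays. It differed by -1.35 (limma adjusted p = 0.0131 over the bright probe sets). Fyn, a kinase bound by DCC, read 6.05, 5.15 and 5.84 on the double-positive arrays, against 7.35, 7.13 and 6.88 on the CD31+ arrays. It differed by -1.44 (limma adjusted p = 0.0131 in the same set). Over all probe sets neither passed, at adjusted p-values of 0.157 and 0.196. Cdc42 and Arf6, a pair of further small GTPases, differed by 0.96 and 1.15 at their brightest probe sets and did not pass in either set (adjusted p = 0.0539 and 0.0537 over the bright ones, from limma). A second Cdc42 probe set differed by 1.27 and passed over the bright ones (adjusted p = 0.0192 from limma).

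**Figure D4:**
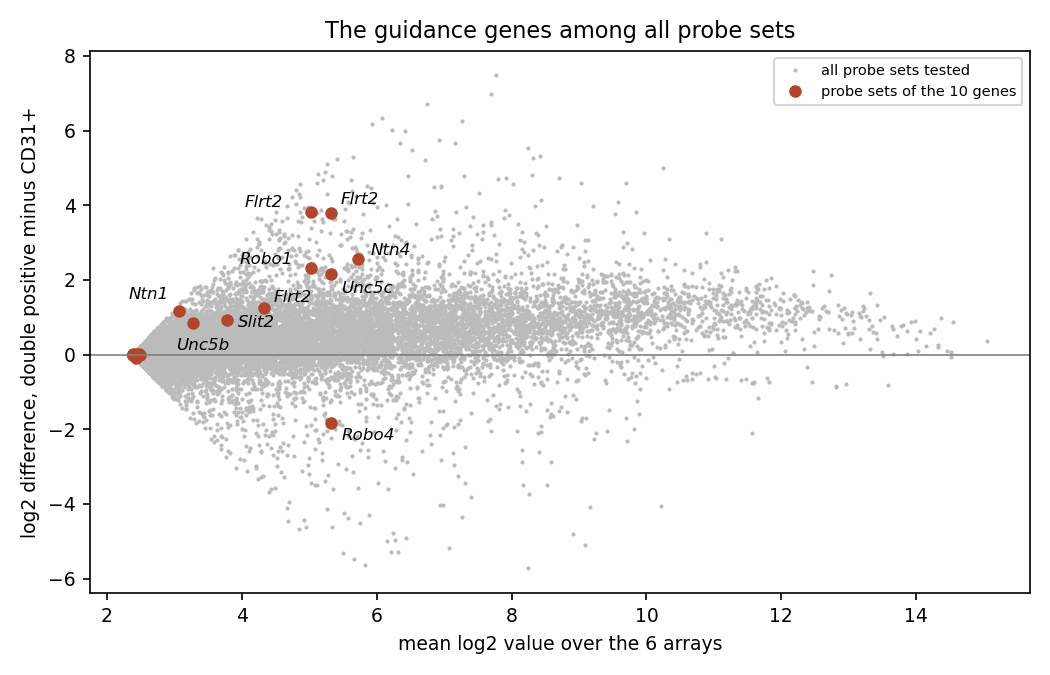
Log2 difference (y axis, double positive minus CD31+) against the mean log2 value over the 6 arrays (x axis) for all 45037 probe sets (grey) and the 20 probe sets of the guidance genes (red, those away from the floor named). Both brighter Flrt2 probe sets lie near 3.8 at a mean close to 5, Robo4 lies at -1.83, and 7 of the 20 are within 0.1 of the floor on all arrays.

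Genes with the most similar profile were sought for the 3 guidance genes with the smallest p, by the root mean square distance of values centred on each gene's mean over the 6 arrays, among 5179 bright probe sets of 1 gene each. For Flrt2 they were C2, Ndn and Wipf3, at distances of 0.21, 0.245 and 0.251 log2 units. For Unc5c they were Ppp4r2, Stau2 and Apold1, at 0.0773, 0.106 and 0.106, and for Robo1 Slc44a2, Nfatc1 and Dnajb4, at 0.133, 0.159 and 0.171. With 6 arrays in 2 groups this likeness mostly reflects a similar difference between the groups, which was 3.58 to 3.96 for the first 3 genes and 2.13 to 2.23 for those of Unc5c.

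Markers of other cells of the LN stroma differed between the groups as well, and their part in the results was not tested. Of 12 measured markers of fibroblastic reticular cells, 3 were higher without overlap and 5 lower. The log2 of the summed level of all 12 was 11.13 to 11.90 in the double-positive arrays and 8.53 to 9.94 in the CD31+ arrays. Postn alone read 10.89 to 11.78 in the double-positive arrays and made up most of their sum, so the sum does not describe the other markers. The higher ones were Postn, Thy1 and Il7, with means of 11.33, 6.61 and 6.01 in the double-positive arrays and 6.73, 3.58 and 3.88 in the CD31+ arrays. The lower ones were Pdgfra, Pdgfrb, Col1a2, Col3a1 and Cxcl13, with means of 2.63, 3.97, 3.34, 4.08 and 4.38 in the double-positive arrays and 4.03, 6.89, 6.45, 7.22 and 6.39 in the CD31+ arrays. The 9 pericyte and smooth muscle markers summed to 8.16 to 8.29 in the double-positive arrays and 7.27 to 9.09 in the CD31+ arrays, with Des and Itga7 at the floor. Rgs5, the brightest of them, overlapped, with means of 7.45 and 7.12, and the sums do not describe the others. Kcnj8 was higher without overlap, with means of 5.92 and 4.54. Acta2 and Tagln were lower without overlap, with 3.98 and 2.84 in the double-positive arrays and 6.32 and 3.19 in the CD31+ arrays. The 9 leukocyte markers summed to 5.78 to 5.82 and 5.76 to 6.16, with Cd3g and Cd79a at the floor, and Ptprc, which encodes CD45, had 2.67 and 3.72.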

How the data were processed

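RNA of sorted LN endothelial cells (20 ng per sample, 2 rounds of linear amplification) was hybridized to 6 GeneChip Mouse Genome arrays. The authors normalized the arrays with GCRMA in Bioconductor, and the deposited values are relative log2 abundances, 1 per probe set and array. Versions, and the arrays normalized together, are not given in the sources used here, and raw intensities were not used. GCRMA subtracts background by probe sequence, which sets a floor and tied values among dim probe sets and understates differences there.

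Of 45101 probe sets, 64 controls were left out. Symbols came from the platform table (34945 probe sets with 1 gene, of which 34741 matched a RefSeq gene ID). Each gene was represented by its probe set with the highest mean, and all others are given by value or range. The R package limma (version 3.58.1, under R 4.3.3, with lmFit and default eBayes) was run on all 45037 probe sets without a block, as the study's methods name limma at 5% FDR, with Benjamini-Hochberg adjustment over all of them. Residual degrees of freedom were 4, and the prior ones 0.356 over all probe sets. The code was checked on simulated data. Precision is limited by having 3 arrays per group, and p-values measure the spread between these pooled samples.

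The design text calls the samples paired. Over the 5764 probe sets averaging 5 or more, what remained of same-numbered arrays after removal of the group mean correlated at 0.341, 0.475 and 0.418. Other pairs gave -0.405 to 0.0566, partly forced lower by removing means of 3 arrays. The replicate number was therefore taken as a pairing and fitted as a block in an alternative. Standard errors, intervals and calls are without the block unless it is named, and so ignore the pairing. With the block, limma adjusted p-values over all probe sets were 0.439 for Ntn4, 0.309 for Robo1 and 0.187 for Robo4.

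From the lists of further ligands, receptors and effectors, genes called over all probe sets were named, and up to 6 per list with the smallest adjusted p under the filter of 5 on at least 3 arrays. Flrt1, Dcc, Unc5a, Unc5d, Ntn3, Ntn5, Adgrl1, Adgrl3, Srgap1 and Srgap2 were named after their values were seen, as relatives of named genes. The genes and lists were chosen with earlier results of these data known. Alternatives were the block, 2 filters on dim probe sets, centred arrays, quantile normalization, eBayes with trend and robust, probe sets averaged per gene, and each array left out. The filter on the mean, alone, with the block and with centring, was chosen after seeing the data. Listed genes without a probe set of their own were not analysed here. Plots used matplotlib 3.10.9 (Python 3.11.15).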

Additional observations from a re-analysis of the deposited data

How the results depend on the processing

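The directions of Flrt2, Ntn4, Unc5c, Robo1, Ntn1 and Robo4 held under every alternative that gave a value, with differences of 3.68 to 3.90, 2.33 to 2.90, 1.99 to 2.23, 2.20 to 2.52, 1.01 to 1.37 and -1.97 to -1.59 when any 1 array was left out. Centred arrays gave 3.12, 1.89, 1.47, 1.64, 0.49 and -2.50, and Slit3, at the floor, turned to -0.67, which is the size of the shift. With probe sets averaged per gene, which mixes in those at the floor, Flrt2, Ntn4, Unc5c, Robo1 and Ntn1 differed by 2.96, 1.28, 1.06, 0.78 and 0.58, and Robo1 was then called (adjusted p = 0.0235 from limma over genes). Over the probe sets averaging 5 or more, leaving out any 1 array kept 5 probe sets of these genes higher and 1 lower. The filter used all 6 arrays and these 6 probe sets entered it through their brighter group, so the counts do not support a difference.

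Of the 20 probe sets, 3 were called higher and 0 lower over all probe sets. The replicate block gave 0 higher. Either filter, alone, with the block or with centred arrays, gave 5 higher and 1 lower of 6. Alone, the filter on the mean called 30.2% of all its probe sets higher and 3.19% lower, and that of 5 on 3 arrays 32.9% and 3.81%. With the block, the filter on the mean called 2643 and 244 of 5764, and that of 5 on 3 arrays 2886 and 291 of 6088. With centring, these were 587 and 497 of 5764, and 732 and 559 of 6088. Centred arrays without a filter gave 6 and 11, against 1947 and 34608 of all 45037 probe sets, since centring moves probe sets at the floor below 0. Quantile normalization and eBayes with trend and robust left the counts at 3 and 0. Leaving out any 1 array gave 1 to 2 higher and 0 lower. Unc5c kept its call over all probe sets without CD31+ replicate 3 alone, and the brightest Flrt2 probe set lost it without CD31+ replicate 3 or double-positive replicate 2 (adjusted p = 0.0563 and 0.0528 from limma).

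For the 21 further ligands and receptors, 1 and 0 probe sets became 0 higher with the block. Either filter in each of its forms gave 1 higher and 2 lower of 5, against the counts and shares over all given above. Quantile normalization gave 0 and 1. Centred arrays gave 2 and 51, against 1947 and 34608 of all 45037 probe sets. Leaving out any 1 array gave 0 higher and 0 lower. For the effectors, 1 and 0 became 0 higher with the block and with eBayes trend and robust, and 0 and 1 with quantile normalization. With centred arrays they were 4 and 66, against 1947 and 34608 of all 45037 probe sets. They were 5 and 2 of 23 with the filter of 5 on 3 arrays and 4 and 2 of 23 with that on the mean. Of all probe sets these filters called 32.9% and 3.81%, and 30.2% and 3.19%. With either filter and the block they were 9 and 2 of 23, against 2886 and 291 of 6088 or 2643 and 244 of 5764. With either filter and centred arrays they were 2 and 4 of 23, against 732 and 559 of 6088 or 587 and 497 of 5764. Without any 1 array they were 0 to 1 in each direction. The cause was not tested. With residual degrees of freedom of 4, a missed threshold over all probe sets does not show that values were alike, and Slit3, Robo2 and the dim probe sets of the other genes sit at or near the floor, where no difference can be seen.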
